A study of Mus musculus with 3 samples.

Results

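GABA-A receptor subunit transcripts were followed in nuclei of mouse brain neurons that project to the lumbar spinal cord. The 7 genes Gabra2, Gabra3, Gabra4, Gabra5, Gabrb1, Gabrb2 and Gabrg3 were chosen by name out of 32285 genes in the files, with no threshold on their values, and all 7 passed the filter on low counts. Uninjured C57BL/6 mice had neurons labelled retrogradely from the lumbar cord, which marks the cell bodies of axons that end in or pass the labelled site. Labelled regions were dissected from brain slices and frozen, and the RNA of isolated nuclei was counted by droplet-based sequencing as unique molecular identifiers (UMIs). The series holds 1 condition in 3 libraries, labelled biological replicates 1, 2 and 3. The sources used here name neither the tracer nor how many animals went into a library, so the p-values measure only the spread between these libraries, which may be technical.

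The GABA-A receptor is a chloride channel built as a ring of subunits around a pore, opened by the transmitter GABA, and it carries most fast inhibition in the brain. The commonest receptors combine alpha, beta and gamma subunits. GABA binds where a beta subunit meets an alpha subunit, benzodiazepines bind where an alpha subunit meets a gamma subunit, and the choice of alpha subunit sets much of the channel's kinetics, its place at or outside the synapse and its drug response. Gabra2 and Gabra3 encode alpha subunits found mostly at synapses, Gabra4 one of extrasynaptic receptors that respond poorly to classical benzodiazepines, and Gabra5 one known for tonic inhibition. Gabrb1 and Gabrb2 encode beta subunits, and Gabrg3 encodes a less studied gamma subunit.

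Nuclei were typed by gate genes, on counts scaled to the same total in every nucleus (CPM), taken in the order cortical (Tox at 300 CPM or more), red nucleus (Ttc6, Chst9 and Rreb1 together at 150), hypothalamic (Sim1 at 150, or Ros1 and Rfx2 together at 150) and hindbrain (Meis1 and Meis2 together at 200). Each gate also needed at least 2 UMIs. Limits of 1000 genes or more and a mitochondrial share of UMIs up to 5% left 9027 nuclei, of which 4126 were cortical, 332 red nucleus, 149 hypothalamic and 2782 hindbrain, and 1638 passed no gate. The hypothalamic type rested on 53, 44 and 52 nuclei in replicates 1, 2 and 3, and the red nucleus type on 127, 86 and 119.

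The libraries held 27435221, 74287112 and 60490064 UMIs, and the median nucleus held 8270, 19493 and 14388 UMIs in replicates 1, 2 and 3. Replicate 2 stood apart in its barcodes, of which 8325 of 11094 fell outside the limits, against 31 of 2710 in replicate 1 and 134 of 3713 in replicate 3. Between 1 and 3 barcodes within the limits were shared by a pair of libraries. Depth differed by type, with a median of 19359.5 UMIs in cortical, 11929 in red nucleus, 8010 in hypothalamic and 10432 in hindbrain nuclei. Each type was highest in at least 1 marker of its label. Bcl11b, which encodes a transcription factor of deep-layer projection neurons, lay between 239.7 and 278 CPM in cortical sums and between 7.38 and 39.5 CPM elsewhere. Hcrt, the orexin precursor, lay between 568 and 986 CPM in hypothalamic sums and between 32.3 and 123 CPM elsewhere. Lhx4, a transcription factor of brainstem and spinal neurons, lay between 20.9 and 27.2 CPM in hindbrain sums and at most at 9.60 CPM elsewhere. The weakest check was that of the red nucleus, where Pou4f1, a transcription factor of its neurons, lay between 8.06 and 23.1 CPM, against at most 1.91 CPM elsewhere. The other red nucleus markers read did not set the type apart. Rxfp2 averaged 2.35 ± 2.24 CPM in red nucleus nuclei, against 4.87 ± 4.35 in hypothalamic and 2.38 ± 0.66 CPM in hindbrain nuclei, and Tfap2d averaged 2.47 ± 2.17 CPM in red nucleus nuclei, against 0.820 ± 1.42 to 1.10 ± 0.59 CPM elsewhere. Of nuclei with a type, 1777 of 7389 also passed the gate of another type. Most of these were typed as cortical, the first gate in the order. In replicates 1, 2 and 3, 530 of 918, 827 of 1415 and 1050 of 1793 cortical nuclei passed only the cortical gate.

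The 7 genes lie on 4 chromosomes of the mouse build GRCm38. Gabra2 (chr5:70958392-71095849, minus strand), Gabra4 (chr5:71569734-71658308, minus strand) and Gabrb1 (chr5:71657921-72149572, plus strand) form 1 cluster. Gabrg3 (chr7:56716463-57387215, minus strand) and Gabra5 (chr7:57407669-57591016, minus strand) are neighbours with 20.5 kb between them. Gabra3 stands on chrX:72432676-72656919 (minus strand) and Gabrb2 on chr11:42419515-42632591 (plus strand). Gabra4 and Gabrb1 start head to head and share 388 bp on opposite strands, and other annotated genes overlap parts of Gabra5 and Gabrb1. The sources used here do not give whether counting used strand, so reads from such shared stretches cannot be assigned.

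Promoter sequences are shown for 4 genes, because neighbours on chromosome 5 had unlike patterns over the nucleus types while Gabra2 and Gabrg3, on different chromosomes, had like ones. Each window runs from 250 bases before to 50 bases after a RefSeq start (GRCm38.p6), printed 5′ to 3′ on the gene's strand. Capitals mark the GC box GGGCGG, found on either strand. Gabra4 (chr5:71658259-71658558, minus strand) and Gabrb1 (chr5:71657671-71657970, plus strand, the first of its annotated starts) are the head-to-head pair, followed by Gabra2 (chr5:71095800-71096099, minus strand) and Gabrg3 (chr7:57387166-57387465, minus strand).
Gabra4: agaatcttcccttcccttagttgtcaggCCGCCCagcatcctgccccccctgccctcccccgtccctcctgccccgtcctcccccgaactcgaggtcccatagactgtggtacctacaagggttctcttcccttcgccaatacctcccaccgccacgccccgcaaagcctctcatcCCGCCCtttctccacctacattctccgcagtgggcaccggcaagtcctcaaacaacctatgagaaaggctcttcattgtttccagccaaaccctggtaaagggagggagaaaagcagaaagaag
Gabrb1: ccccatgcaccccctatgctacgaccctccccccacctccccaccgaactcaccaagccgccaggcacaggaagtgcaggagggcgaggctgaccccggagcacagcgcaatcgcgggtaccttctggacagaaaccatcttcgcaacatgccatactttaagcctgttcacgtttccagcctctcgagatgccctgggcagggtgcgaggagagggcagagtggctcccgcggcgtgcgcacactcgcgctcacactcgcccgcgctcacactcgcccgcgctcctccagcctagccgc
Gabra2: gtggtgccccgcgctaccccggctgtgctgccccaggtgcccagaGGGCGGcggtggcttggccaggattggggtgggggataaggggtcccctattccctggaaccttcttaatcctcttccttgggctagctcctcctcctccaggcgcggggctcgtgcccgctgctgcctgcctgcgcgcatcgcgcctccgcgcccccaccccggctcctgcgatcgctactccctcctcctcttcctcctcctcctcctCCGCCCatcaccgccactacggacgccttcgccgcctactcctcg
Gabrg3: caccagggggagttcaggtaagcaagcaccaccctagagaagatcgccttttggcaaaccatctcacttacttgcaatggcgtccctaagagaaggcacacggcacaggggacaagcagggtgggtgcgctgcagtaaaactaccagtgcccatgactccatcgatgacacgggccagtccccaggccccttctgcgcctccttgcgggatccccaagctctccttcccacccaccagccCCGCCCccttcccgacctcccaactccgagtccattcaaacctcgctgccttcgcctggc

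The windows of Gabra4 and Gabra2 each held 2 GC boxes and that of Gabrg3 held 1, while none was found in the Gabrb1 window. A GC box was present in 35.7% of the 32851 promoters of this length. TATAAA, GCGTGGGCG and TGACGTCA, searched on both strands, were in none of the 4 windows, and in 13.6%, 0.612% and 1.79% of all promoters. CpG pairs numbered 12 in Gabra4, 25 in Gabrb1, 25 in Gabra2 and 13 in Gabrg3. Other annotated windows of the members differed in these letters, with TATAAA in the Gabra3 windows and in 1 of 3 Gabrb2 windows. A match describes the sequence alone.

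Levels are given as CPM scaled by TMM, a factor that evens out libraries whose total is taken up by a few genes, over the UMI sum of 1 type in 1 library. A gene was called when its adjusted p was under 0.05 over 16176 genes (edgeR quasi-likelihood test, Benjamini-Hochberg) and its log2 fold change was at least 1 in size, each type being set against the equally weighted mean of the other 3. Against this mean, 5 of the 7 members were called higher in cortical nuclei and none lower, 3 were called lower in red nucleus nuclei, and 2 were called higher and 2 lower in hypothalamic nuclei. No member was called in hindbrain nuclei. A call against this mean does not say that a type differs from each of the other 3, so the pairs are given gene by gene below. Among all genes tested, 22.6% were called in cortical nuclei (9.24% higher and 13.3% lower), 7.16% in red nucleus nuclei (4.84% higher and 2.32% lower), 7.88% in hypothalamic nuclei (4.55% higher and 3.33% lower) and 4.75% in hindbrain nuclei (3.51% higher and 1.25% lower). In the 6 pairs of types, 15 of the 42 comparisons of members were called, against 13.3% of all gene comparisons. Counts below of genes that passed p alone, without the size limit, have no such share beside them. They are not read as a trait of the genes counted. In such sums, fewer nuclei with a transcript and less RNA per nucleus cannot be told apart.

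**Figure D1:**
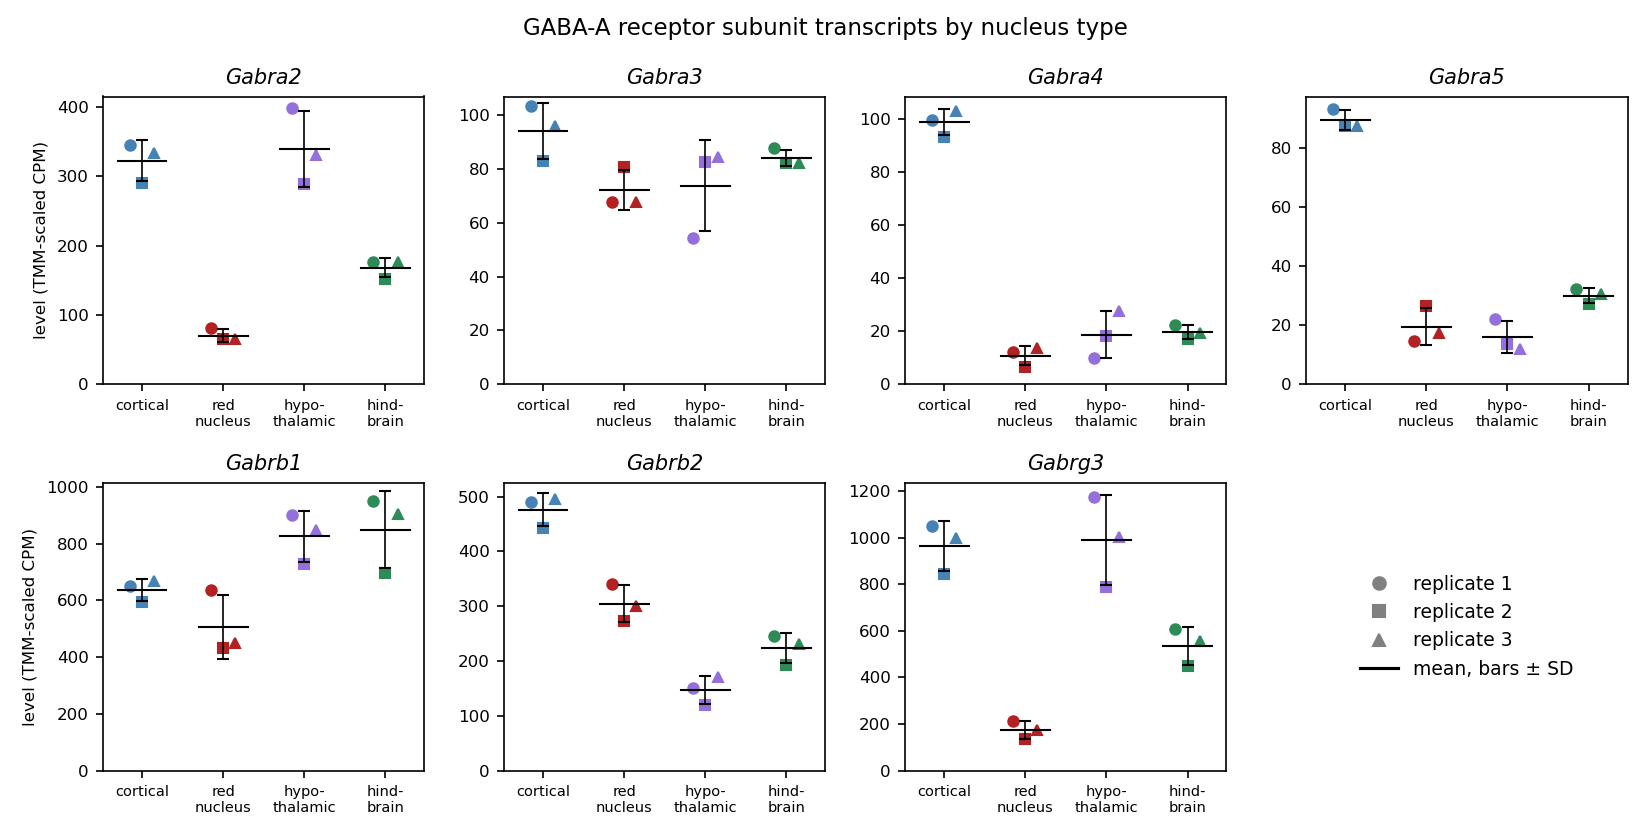
Level of each of the 7 genes (y axis, TMM-scaled CPM, from 0) in the 4 nucleus types (x axis), with 1 symbol per library, the mean as a line and bars of ± 1 SD over 3 libraries. Gabra4 and Gabra5 stand high in cortical nuclei, at means of 98.7 and 89.5 CPM, Gabra2 and Gabrg3 are low in red nucleus nuclei, and Gabra3 lies between 54.1 and 103 CPM throughout.

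Among the alpha subunits, Gabra2 separated the red nucleus from the other types. It had 80.6, 65.3 and 64.9 CPM in red nucleus nuclei of replicates 1, 2 and 3, against 345, 290 and 334 in cortical, 398, 289 and 330 in hypothalamic and 176, 152 and 177 in hindbrain nuclei. Every red nucleus value lay under every value of the other types. Gabra2 was lower in red nucleus nuclei by a log2 fold change of -1.91 ± 0.08 (SE, adjusted p = 3.11e-11, lower in 3 of 3 libraries). Hypothalamic nuclei were higher than the mean of the other types (1.11 ± 0.08, adjusted p = 1.5e-08, edgeR), and so were cortical nuclei (1.03 ± 0.06, adjusted p = 8.11e-11, edgeR), each overlapping the other. Cortical and hypothalamic levels of Gabra2, neighbours in its order, were not told apart (-0.06 ± 0.08, adjusted p = 0.623, edgeR). All 3 pairs of types called for Gabra2 held the red nucleus. Cortical against hindbrain (0.936 ± 0.069, adjusted p = 2.58e-09) and hypothalamic against hindbrain (0.996 ± 0.087, adjusted p = 4.36e-07, both edgeR) stayed under the size limit. The cortical call stood at the edge of the limit: without replicate 3 the log2 fold change was 1.00 and fell just short before rounding.

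Gabra3 was the flattest member. It averaged 94.0 ± 10.3 CPM in cortical, 72.0 ± 7.43 in red nucleus, 73.7 ± 17.0 in hypothalamic and 84.0 ± 3.12 CPM in hindbrain nuclei (SD, n = 3 each), and the ranges of cortical, hypothalamic and hindbrain values overlapped. None of its 6 pairs of types was called, and only cortical against red nucleus passed the adjusted p alone (0.36 ± 0.12, adjusted p = 0.0167, edgeR). Its cortical difference from the mean of the other types was 0.27 and uncalled, and it turned to -0.16 under scaling by total UMIs.

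Gabra4 was highest in cortical nuclei. Cortical sums held 99.7, 93.3 and 103 CPM in replicates 1, 2 and 3, against 12.1, 6.63 and 13.6 in red nucleus, 9.84, 18.4 and 27.5 in hypothalamic and 22.4, 17.2 and 19.3 in hindbrain nuclei. The cortical values lay above all others with no overlap. The log2 fold change was 2.64 ± 0.11 for cortical nuclei against the mean of the other types (adjusted p = 9.15e-13, higher in 3 of 3 libraries, edgeR), and -1.67 ± 0.22 for red nucleus nuclei (adjusted p = 1.84e-05, edgeR). Hypothalamic and hindbrain nuclei were not told apart (0.01 ± 0.28, adjusted p = 0.997, edgeR), and red nucleus against hypothalamic did not pass either (-0.89 ± 0.35, adjusted p = 0.116, edgeR). Red nucleus against hindbrain passed the adjusted p under the size limit (-0.88 ± 0.21, adjusted p = 0.011, edgeR). All 3 pairs of types called for Gabra4 held the cortical type.

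Cortical markers were also found at a low level outside the cortical type, and Gabra4 was set beside them. Its mean level was 10.9% of the cortical level in red nucleus, 18.8% in hypothalamic and 19.9% in hindbrain nuclei. For Fezf2, a transcription factor that specifies corticospinal neurons, the same shares were 9.06%, 14.0% and 16.3% in that order of types, and for the vesicular glutamate transporter Slc17a7 they were 11.6%, 16.3% and 21.8%. For Bcl11b they were 12.9%, 4.84% and 10.9%. Gabra4 thus lay under Bcl11b and Slc17a7 in red nucleus nuclei, above all 3 markers in hypothalamic nuclei, and between Slc17a7 and the other markers in hindbrain nuclei. The part of cortical RNA in the Gabra4 counts of other types was not tested.

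Gabra5 was also highest in cortical nuclei, but less steeply. It had 93.4, 87.6 and 87.4 CPM in cortical sums, against 14.5, 26.5 and 17.5 in red nucleus, 22.1, 13.8 and 12.05 in hypothalamic and 32.2, 27.1 and 30.7 in hindbrain sums. Cortical values did not overlap with the others, and hindbrain values lay above those of red nucleus and hypothalamic nuclei. Cortical nuclei were higher by 2.09 ± 0.11 (adjusted p = 2.76e-11, edgeR) and hypothalamic nuclei lower by -1.30 ± 0.27 (adjusted p = 0.00222, edgeR). All 3 pairs of types called for Gabra5 held the cortical type. Red nucleus and hypothalamic values overlapped and were not told apart (0.41 ± 0.33, adjusted p = 0.517, edgeR). Hypothalamic against hindbrain passed the adjusted p under the size limit (-0.96 ± 0.28, adjusted p = 0.0446, edgeR). The hypothalamic value rested on 25 Gabra5 UMIs in all. In red nucleus nuclei the log2 fold change was -0.76 ± 0.19 and under the size limit, but -1.15 and called without replicate 2.

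The beta subunits moved apart from each other. Gabrb1 had 949, 695 and 904 CPM in hindbrain, 903, 728 and 847 in hypothalamic, 649, 595 and 668 in cortical and 638, 432 and 449 in red nucleus nuclei of replicates 1, 2 and 3. Hindbrain and hypothalamic values overlapped and lay above all cortical values, and red nucleus values reached into the cortical range in replicate 1. No pair of types was called for Gabrb1, although 5 of 6 passed the adjusted p alone; the widest was red nucleus against hindbrain (-0.75 ± 0.09, adjusted p = 2.5e-05, edgeR).

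Gabrb2 gave a ladder in which every step passed the adjusted p. Its level was 490, 442 and 496 CPM in cortical, 339, 272 and 300 in red nucleus, 246, 192 and 231 in hindbrain and 150, 119 and 170 in hypothalamic nuclei. No neighbouring types overlapped in this order. Cortical nuclei were higher than the mean of the other types by 1.15 ± 0.06 (adjusted p = 2.33e-11) and hypothalamic nuclei lower by -1.12 ± 0.09 (adjusted p = 1.11e-07, both edgeR). All 6 pairs passed the adjusted p, and 3 were called, of which cortical against hypothalamic was the widest (1.70 ± 0.10, adjusted p = 2.86e-10, edgeR).

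Gabrg3 had the widest drop of any member in the red nucleus. Red nucleus sums held 214, 135 and 174 CPM in replicates 1, 2 and 3, against 1051, 842 and 998 in cortical, 1176, 789 and 1004 in hypothalamic and 606, 447 and 555 in hindbrain sums. Every red nucleus value lay under every other, and hindbrain values lay between the red nucleus and the overlapping cortical and hypothalamic ranges. The log2 fold change was -2.21 ± 0.08 in red nucleus (adjusted p = 1.39e-12), 1.14 ± 0.06 in hypothalamic (adjusted p = 8e-10) and 1.11 ± 0.06 in cortical nuclei (adjusted p = 1.84e-11, all edgeR). Cortical and hypothalamic nuclei were not told apart (-0.02 ± 0.08, adjusted p = 0.841, edgeR). All 3 pairs of types called for Gabrg3 held the red nucleus. Cortical against hindbrain (0.852 ± 0.071, adjusted p = 1.34e-08) and hypothalamic against hindbrain (0.876 ± 0.077, adjusted p = 5.01e-07, both edgeR) stayed under the size limit.

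**Figure D2:**
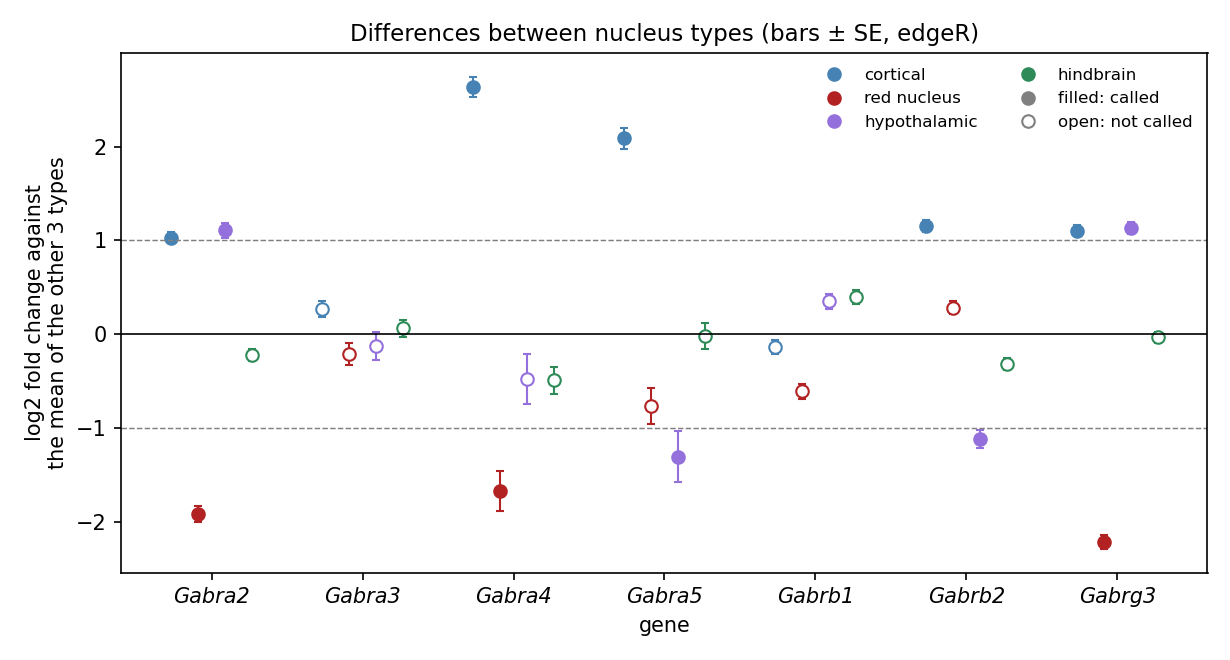
Log2 fold change of each member (y axis) in each type against the mean of the other 3 types, with bars of ± 1 SE from edgeR, dashed lines at the limit of 1 and filled points for called differences. Cortical points of Gabra4 and Gabra5 are the highest, at 2.64 and 2.09, and the red nucleus points of Gabrg3 and Gabra2 the lowest, at -2.21 and -1.91.

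No member reached the size limit in hindbrain nuclei, although the mean level of Gabrb1 was the highest of the 4 types there, at 849 ± 136 CPM. By edgeR, 4 of the 7 members passed an unadjusted p of 0.05, and the same number an adjusted p of 0.05, all under the size limit, and DESeq2 also called 0. The widest of these were Gabra4 (-0.49 ± 0.15, adjusted p = 0.0285), Gabrb1 (0.40 ± 0.07, adjusted p = 0.000792) and Gabrb2 (-0.32 ± 0.07, adjusted p = 0.00224, all edgeR). The share of all genes that passed p alone is not given, so the 4 are not read as a trait of the members. The median log2 fold change over the members was -0.03 in hindbrain, against 0.03 over all genes, and it was 1.11 in cortical, -0.76 in red nucleus and -0.12 in hypothalamic nuclei, against -0.03, 0.03 and -0.04 over all genes.

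These folds rest on the TMM scale, and cortical nuclei are where it matters most. With scaling by total UMIs alone, an alternative added after the data were seen, the median of all genes moved by -0.43 in cortical, 0.28 in hypothalamic and 0.12 in hindbrain nuclei on the log2 scale. All genes called in cortical nuclei then split into 870 higher and 3839 lower, against 1494 and 2157 with TMM, and in hypothalamic nuclei into 1200 and 281, against 736 and 538. Of the cortical member calls, Gabra4 and Gabra5 remained under that scaling, and Gabra2 (0.60), Gabrb2 (0.72) and Gabrg3 (0.68) kept their sign below the size limit. The same 2 genes were called in cortical nuclei when each nucleus was thinned to 5000 UMIs. Hypothalamic calls were not all secure either. Over all alternatives tried, the Gabrb2 log2 fold change in hypothalamic nuclei ran from -1.35 to -0.84, across the size limit.

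The mix of subunits, the share of each gene in the UMIs of the 7, does not depend on such scaling. It leaves out subunits that are not among the 7, so it is not the make-up of receptors. Longer genes can give more UMIs, so each share is compared between types and not with that of another gene. Red nucleus nuclei put 15.0 ± 1.52% of these UMIs on Gabrg3 (SD, n = 3), against 35.9 ± 1.25% in cortical, 40.9 ± 2.34% in hypothalamic and 28.0 ± 0.48% in hindbrain nuclei. Gabrb1 took 43.5 ± 2.85% in red nucleus and 44.4 ± 1.13% in hindbrain nuclei, against 34.4 ± 1.21% in hypothalamic and 23.8 ± 0.79% in cortical nuclei. Gabrb2 took 26.4 ± 1.41% in red nucleus nuclei and 6.09 ± 0.71% in hypothalamic nuclei, the ends of its range. The libraries of a type stayed close together: the shares of Gabrg3 and Gabrb2 overlapped between no pair of types.

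**Figure D3:**
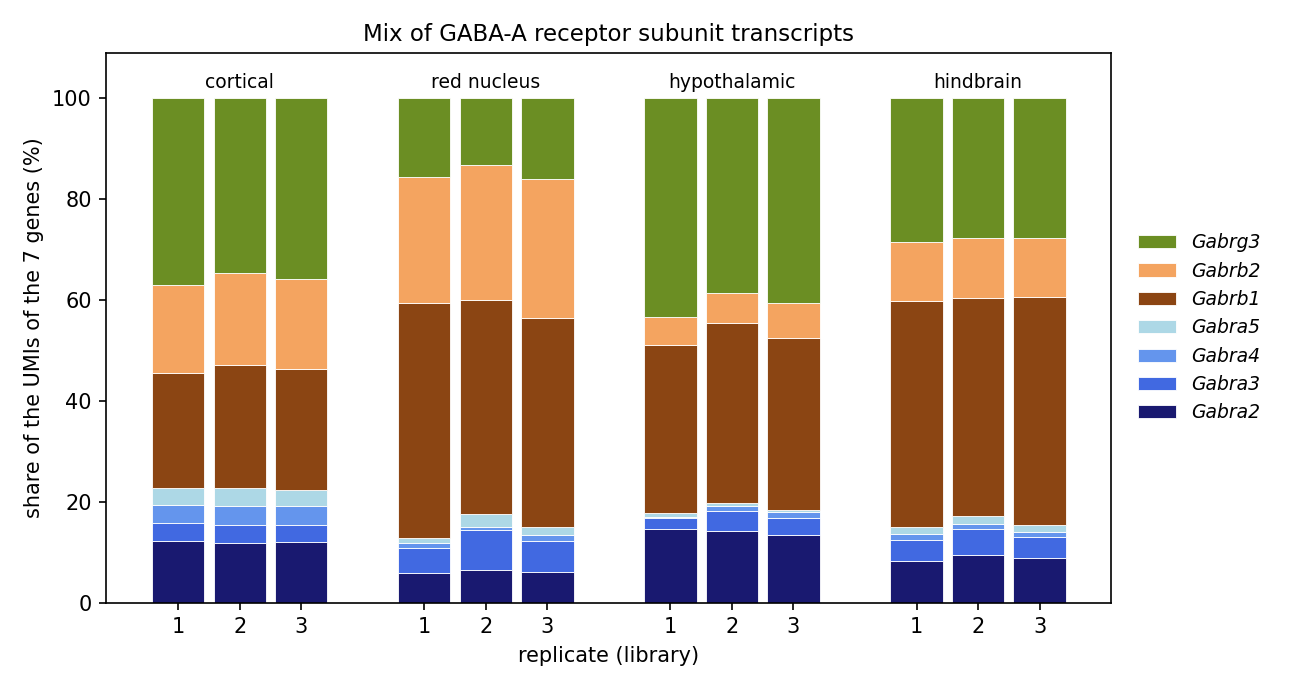
Share of each gene in the UMIs of the 7 genes (y axis, percent), as stacked bars with 1 bar per library in each nucleus type (x axis). The Gabrg3 block is smallest in the red nucleus, at 15.0% on average, and the Gabrb2 block is smallest in hypothalamic nuclei, at 6.09%.

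Within the alpha genes, each type had its own balance. Gabra2 made up 75.5 ± 5.84% of the alpha UMIs in hypothalamic nuclei, with a lowest library at 71.6%, and the highest library of any other type stood at 57.2%. Gabra3 made up 41.7 ± 3.16% in red nucleus nuclei, against 27.8 ± 1.47% in hindbrain, 16.7 ± 4.91% in hypothalamic and 15.5 ± 0.57% in cortical nuclei. Gabra4 and Gabra5 took 16.3 ± 0.70% and 14.8 ± 0.89% in cortical nuclei, and their shares elsewhere were at most 8.28% and 14.8% in any library.

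Between the beta genes, Gabrb2 made up 42.8 ± 0.24% of the pair in cortical, 37.8 ± 2.77% in red nucleus, 20.9 ± 0.73% in hindbrain and 15.0 ± 1.50% in hypothalamic nuclei (SD, n = 3 each). The ranges of these shares overlapped between no pair of types. The ratio within the pair thus separated cortical and red nucleus nuclei from hindbrain and hypothalamic nuclei.

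Levels of different genes are set against each other per kb of gene span, since the spans run over 88.6 kb for Gabra4 and 671 kb for Gabrg3; the sources used here do not give whether introns were counted. On that scale Gabra2 led in cortical nuclei, at 2.35 ± 0.21 CPM per kb, and in hypothalamic nuclei, at 2.47 ± 0.40. Gabrb2 led in red nucleus nuclei, at 1.43 ± 0.16, and Gabrb1 in hindbrain nuclei, at 1.73 ± 0.28 CPM per kb. In cortical nuclei Gabrb2 came close behind Gabra2, at 2.23 ± 0.14 CPM per kb, a gap within the SD. These orders hold only if UMIs grow with gene span, which was not tested, and they are not read as amounts of subunit.

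The hypothalamic type joined 2 sets of nuclei with unlike Gabrg3 levels. Nuclei that entered by Sim1, a transcription factor of the paraventricular nucleus, numbered 34, 22 and 37 in replicates 1, 2 and 3. Those that entered by Ros1 and Rfx2 numbered 19, 22 and 15 and carried Hcrt at 1868 ± 374 CPM, against 64.4 ± 33.1 CPM in the Sim1 nuclei. Oxt, which encodes oxytocin, was at 429 ± 232 CPM in the Sim1 nuclei and at 6.84 ± 9.25 CPM in the Ros1 and Rfx2 nuclei.

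Gabrg3 reached 1532 ± 302 CPM in Sim1 nuclei and 182 ± 42.2 CPM in Ros1 and Rfx2 nuclei (SD, n = 3). Its lowest library stood at 1343 CPM among the Sim1 nuclei and its highest at 210 CPM among the others, and the hypothalamic level given above averages over both. In the mix, Gabrg3 took 49.9 ± 2.98% in Sim1 nuclei and 12.6 ± 2.81% in Ros1 and Rfx2 nuclei, where Gabrb1 took 52.6 ± 3.29%. The Ros1 and Rfx2 level of Gabrg3 thus lay beside the red nucleus level of 174 ± 39.5 CPM. These values are a description, with no test.

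Gabra2 and Gabrb1 overlapped between these sets. Gabra2 had 354 ± 47.3 CPM in Sim1 nuclei and 326 ± 71.9 CPM in Ros1 and Rfx2 nuclei. Gabrb1 had 874 ± 115 and 756 ± 54.5 CPM in the same order. Gabra3 was at 89.4 ± 22.3 CPM in Sim1 nuclei and 49.0 ± 9.81 CPM in Ros1 and Rfx2 nuclei, without overlap but on 91 and 34 UMIs. Gabra4 rested on 28 and 4 UMIs, and in replicates 1 and 3 of the Ros1 and Rfx2 nuclei it had 0 UMIs, which allows up to 17.5 and 17.4 CPM.

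**Figure D4:**
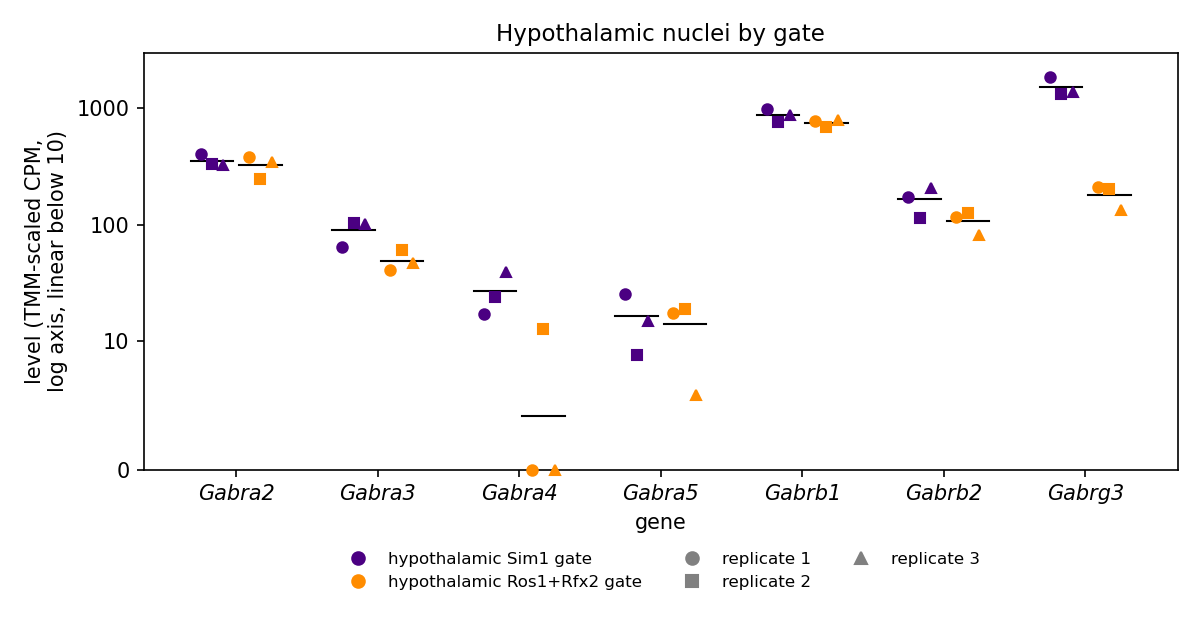
Level of each member (y axis, TMM-scaled CPM, log axis that is linear below 10) in hypothalamic nuclei by the gate they entered, with 1 symbol per library and the mean as a line. Gabrg3 stands at 1532 CPM on average in Sim1 nuclei and at 182 CPM in Ros1 and Rfx2 nuclei, while Gabra2 and Gabrb1 overlap.

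Hindbrain nuclei were split by inhibitory transcripts. Nuclei with at least 2 UMIs and 100 CPM of inhibitory transmitter genes (Gad1, Gad2, Slc32a1 and Slc6a5) numbered 27 and 44 in replicates 1 and 3, and the 8 in replicate 2 were too few to use. Gabrg3 had 470 and 510 CPM in these inhibitory nuclei, against 539 ± 82.4 CPM in the other hindbrain nuclei. Gabra2 had 143 and 226 CPM in the inhibitory nuclei, against 168 ± 14.4 CPM in the others. For both genes the libraries of these groups overlapped. Gabra3 had 105 and 106 CPM in the inhibitory nuclei, against 83.0 ± 3.32 CPM in the others, and Gabra5 had 37.7 and 49.5 CPM, against 29.7 ± 2.35 CPM, both without overlap. The Gabra5 values rest on 45 UMIs. In the unused inhibitory nuclei of replicate 2, Gabra5 went the other way, at 10.1 CPM on 2 UMIs against 27.3 CPM in the others. Gabra3 was at 162 CPM there, against 81.0 CPM. Gabra4 had 6.85 and 13.1 CPM in the inhibitory nuclei, against 20.0 ± 2.87 CPM in the others, also without overlap but on 11 UMIs. These differences are a description, with no test.

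The share of nuclei with a UMI was compared after thinning each nucleus to 5000 UMIs, which left out 168 cortical, 25 red nucleus, 23 hypothalamic and 312 hindbrain nuclei that were shallower. Gabra2 was found in 29.4 ± 2.06% of red nucleus nuclei, against 68.5 ± 2.18% of cortical, 77.0 ± 1.49% of hypothalamic and 50.6 ± 2.29% of hindbrain nuclei; unthinned, these were 46.4%, 90.9%, 82.4% and 70.0%. Gabrg3 was found in 41.2 ± 5.42% of red nucleus nuclei, against 92.5 ± 2.22% of cortical, 76.0 ± 12.5% of hypothalamic and 67.0 ± 1.73% of hindbrain nuclei; unthinned, these were 57.4%, 97.2%, 81.1% and 76.5%. Both genes were thus found in fewer red nucleus nuclei in all libraries.

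Gabra4 was found in 30.6 ± 0.68% of cortical nuclei, against 5.29 ± 2.58% of red nucleus, 10.3 ± 2.77% of hypothalamic and 9.19 ± 1.28% of hindbrain nuclei; unthinned, these were 64.4%, 11.3%, 16.4% and 17.4%. Slc17a7, carried mainly by cortical excitatory neurons, was found in 5.84 ± 3.13% of red nucleus, 10.3 ± 1.61% of hypothalamic and 13.0 ± 7.18% of hindbrain nuclei at the same depth, and in 40.8 ± 9.08% of cortical nuclei. Bcl11b was found in 17.0 ± 4.99% of red nucleus, 3.95 ± 1.31% of hypothalamic and 11.5 ± 5.38% of hindbrain nuclei, and in 60.0 ± 2.43% of cortical nuclei. Unthinned, Slc17a7 was found in 20.2%, 19.9%, 24.8% and 77.8% and Bcl11b in 35.7%, 9.75%, 20.1% and 86.7%, with the types in the same order. The mean Gabra4 shares lay under those of both markers in red nucleus and hindbrain nuclei, and above that of Bcl11b in hypothalamic nuclei. Libraries of Gabra4 and Slc17a7 overlapped in red nucleus, hypothalamic and hindbrain nuclei, and those of Gabra4 and Bcl11b in hindbrain nuclei. Gabra4 was also found in fewer cortical nuclei than either marker, so this order is not relative to the cortical share. Whether Gabra4 UMIs outside the cortical type came from those nuclei or from free RNA was not tested. Gabra5 was found in 26.5 ± 0.30% of cortical nuclei, against 10.4 ± 5.17% of red nucleus, 7.94 ± 1.38% of hypothalamic and 12.5 ± 1.88% of hindbrain nuclei; unthinned, these were 61.1%, 23.0%, 13.6% and 27.8%. The mean Gabra5 share lay above that of Slc17a7 in red nucleus nuclei and above that of Bcl11b in hypothalamic and hindbrain nuclei. Libraries overlapped in the red nucleus and hindbrain comparisons. Its mean level was 21.8% of the cortical level in red nucleus, 17.9% in hypothalamic and 33.6% in hindbrain nuclei, and the part of cortical RNA in it was not tested.

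The number of the 4 alpha genes with a UMI was counted per nucleus. The counts hold any UMIs from free RNA, Gabra4 and Gabra5 outside the cortex included, whose part was not tested. At 5000 UMIs, 2 or more alpha genes were found in 50.4 ± 2.17% of cortical nuclei, 36.4 ± 6.91% of hypothalamic, 27.4 ± 3.17% of hindbrain and 14.2 ± 1.20% of red nucleus nuclei. None was found in 12.1 ± 0.87% of cortical and 43.9 ± 5.87% of red nucleus nuclei, which says only that these 4 genes gave no UMI at this depth. Gabra2 and Gabra3 were found together in hypothalamic (28.5 ± 8.02%), hindbrain (17.6 ± 1.62%) and red nucleus nuclei (7.76 ± 2.77%). In cortical nuclei Gabra2 with Gabra4 (21.2 ± 1.71%), with Gabra3 (20.4 ± 2.74%) and with Gabra5 (18.8 ± 1.06%) were found at overlapping shares.

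**Figure D5:**
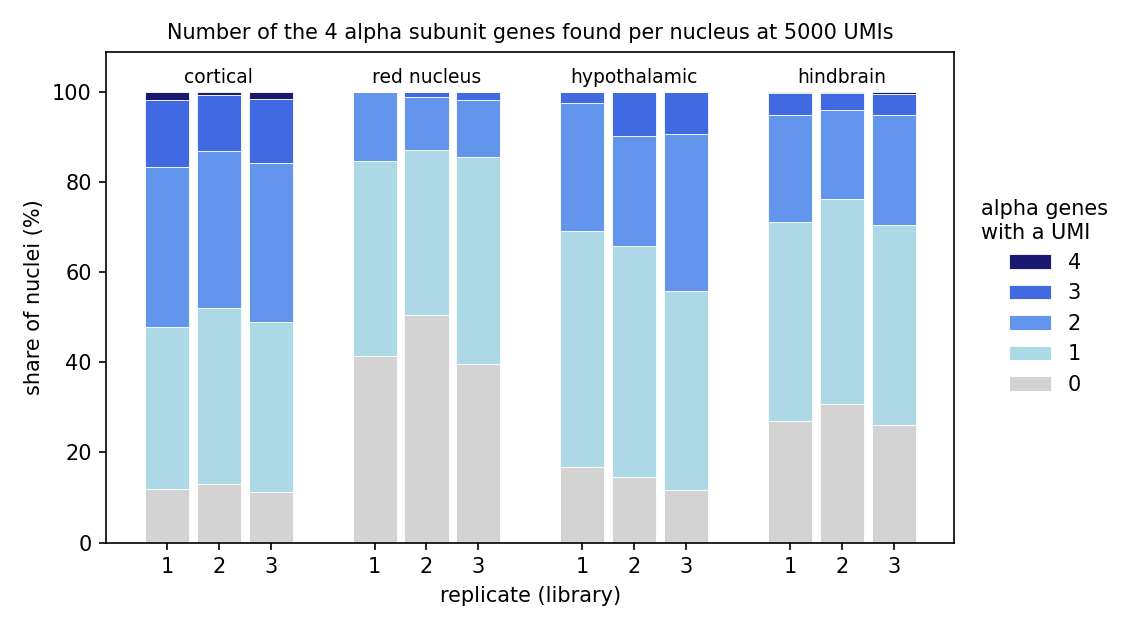
Share of nuclei (y axis, percent) with a UMI of 0 to 4 of the alpha genes Gabra2, Gabra3, Gabra4 and Gabra5, in nuclei thinned to 5000 UMIs, as stacked bars with 1 bar per library in each type (x axis). The grey block of nuclei with none is largest in the red nucleus, at 43.9% on average, and smallest in the cortical type, at 12.1%.

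Other genes of GABA signalling were read from lists of 8 further receptor subunits, 10 genes of receptor anchoring and assembly, and 5 genes of GABA transport and the metabotropic GABA-B receptor. Only 4 of the 8 subunits passed the filter on low counts: Gabrg1, Gabre, Gabrq and Gabrr1. Of these, Gabrg1, Gabre and Gabrq were called lower in cortical nuclei, Gabrg1 higher in hypothalamic and Gabrq higher in hindbrain nuclei. Among all genes tested, 13.3% were called lower in cortical, 4.55% higher in hypothalamic and 3.51% higher in hindbrain nuclei. In red nucleus nuclei 0 of the 4 were called, against 7.16% of all genes, and 0 passed an unadjusted p of 0.05 by edgeR. Gabrg1, a gamma subunit gene beside Gabra2 on chromosome 5, had 33.5 ± 13.5 CPM in hypothalamic, 16.5 ± 4.12 in hindbrain, 8.31 ± 5.88 in red nucleus and 2.73 ± 0.71 CPM in cortical nuclei. It was higher in hypothalamic (2.19 ± 0.35, adjusted p = 0.000194) and lower in cortical nuclei (-2.58 ± 0.26, adjusted p = 1.41e-07, both edgeR). Gabre and Gabrq had at most 5.70 CPM in any sum, so their calls rest on few counts. Gabre had 6 UMIs in red nucleus and 4 in hypothalamic nuclei over all libraries, with 0 in replicate 2 of both. Gabrq had 6 UMIs in each of these types, with 0 in replicate 3 of the red nucleus.

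Of the 10 anchoring and assembly genes, 8 passed the adjusted p in cortical nuclei and 5 in red nucleus nuclei, most of them under the size limit. The share of all genes that passed the adjusted p alone is not given, so these counts are not read as particular to anchoring genes. With the size limit added, 22.6% of all genes were called in cortical and 7.16% in red nucleus nuclei. In cortical nuclei 1 was called lower in cortical nuclei, Rdx, which encodes radixin, the anchor of extrasynaptic receptors that hold the Gabra5 subunit (-1.26 ± 0.12, adjusted p = 6.19e-08, edgeR). Rdx stood at 19.5 ± 3.02 CPM in cortical nuclei, against 45.0 ± 7.33 in red nucleus, 46.4 ± 9.94 in hypothalamic and 47.1 ± 2.03 CPM in hindbrain nuclei. Slitrk3, a synaptic adhesion gene, stood just under the limit in cortical nuclei (1.00 ± 0.21, adjusted p = 0.000678, edgeR). In red nucleus nuclei 1 was called lower, Shisa7, which encodes a GABA-A receptor auxiliary protein (-1.11 ± 0.18, adjusted p = 0.000269, edgeR). Its level was 11.9 ± 1.88 CPM in red nucleus nuclei, against 31.0 ± 5.37 in cortical, 24.2 ± 6.34 in hypothalamic and 22.2 ± 2.35 CPM in hindbrain nuclei. None of the 10 was called in hypothalamic or hindbrain nuclei, where 7.88% and 4.75% of all genes were called. Of the 10, 5 and 2 passed an unadjusted p of 0.05 there by edgeR. With 10 genes, no call is not read as a difference from those shares.

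Among the 5 genes of transport and GABA-B receptors, Gabbr2, a subunit of the metabotropic receptor, was higher in cortical nuclei (1.03 ± 0.07, adjusted p = 5.17e-10) and lower in hypothalamic nuclei (-1.20 ± 0.11, adjusted p = 3.16e-07, both edgeR). It had 353 ± 33.3 CPM in cortical and 108 ± 23.6 CPM in hypothalamic nuclei. Slc6a11, a GABA transporter best known from astrocytes, was lower in cortical (-3.13 ± 0.43, adjusted p = 7.53e-06) and higher in hypothalamic (2.39 ± 0.56, adjusted p = 0.00548) and hindbrain nuclei (1.36 ± 0.32, adjusted p = 0.00672, all edgeR), at levels of at most 17.2 CPM. In red nucleus nuclei 0 of the 5 were called, against 7.16% of all genes, and 2 passed an unadjusted p of 0.05 by edgeR. The summed level of 4 astrocyte markers lay between 0 and 10.2 CPM in all types and libraries, and its part in the Slc6a11 result was not tested. The summed level of 4 oligodendrocyte markers was 79.7 ± 10.4 CPM in cortical nuclei, against 23.3 to 39.3 CPM on average elsewhere, and that of 4 microglia markers was 36.8 ± 10.4 CPM in cortical nuclei, against 60.4 to 74.5 CPM elsewhere. The part of either list in the member results was not tested.

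The genes most like each member over the 12 sums were found by Pearson's r of log2 levels among 6999 genes, as a description, since the 12 points share libraries and depth. Pde4b, a phosphodiesterase that breaks down cyclic AMP, was the closest to both Gabra2 (r = 0.981) and Gabrg3 (r = 0.977), followed by Ptprf (r = 0.973) for Gabra2 and Cadm1 (r = 0.974) for Gabrg3. Abhd2 (r = 0.989) and Npas2 (r = 0.988) were closest to Gabra4, and D130040H23Rik (r = 0.978) and Rnf145 (r = 0.971) to Gabra5. Rgs7bp and Nrxn3 (both r = 0.986) were closest to Gabrb2, and Pacs1 (r = 0.929) and Pgap1 (r = 0.912) to Gabrb1. Gabra3, the flattest member, had Golga1 (r = 0.936) and Riok3 (r = 0.935).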

How the data were processed

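Nuclei of 3 libraries were analysed. The deposited files hold raw UMI counts per gene and barcode, with gene and barcode names as their other columns. Counts were made with Cell Ranger, version 6.1.1 per the file headers and 7.0.1 with build mm10 per the submitters' processing notes; which of these versions made them, whether introns and strand were used and how barcodes were chosen are points the sources used here do not give.

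From these counts, UMIs were summed per library and nucleus type over the nuclei described above, giving 12 sums of 367083 to 45768766 UMIs. All sums entered 1 model in edgeR 4.0.16 under R 4.3.3 (quasi-likelihood test, TMM scaling, filterByExpr), with the library as a block, since each library gives all 4 types; 6 residual degrees of freedom remained. The 9 gate genes were left out before adjustment over 16176 genes. SE is the log2 fold change over the square root of F. The common biological coefficient of variation was 0.0867. Thinning used a fixed seed. Doublets were kept in the main results; Scrublet (Scanpy 1.11.5, expected rate 6%) marked 126 of 9027 nuclei, which were removed in an alternative. DESeq2 1.42.0, other scalings and gates, and leaving out libraries were also tried. The fit was also run on simulated counts drawn from a shared profile in which a set of genes was changed. Those counts lack the wide differences between types seen here, so that run is not used as support.

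The members, gates and gene lists were chosen with earlier results of these data known. The named genes are the 7 members, the called genes of the lists and the 2 genes most like each member. Floors are 3 counts per library and cover counting error only. Some further genes of the lists are not reported here.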

Additional observations from a re-analysis of the deposited data

Results flagged for a closer look

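Members were also found in nuclei and barcodes outside the comparisons, given here in CPM without TMM scaling. In the nuclei that passed no gate, the mean over 3 libraries was 167 CPM for Gabra2, 74.0 for Gabra3, 37.8 for Gabra4, 46.1 for Gabra5, 575 for Gabrb1, 244 for Gabrb2 and 493 for Gabrg3. Each of these values lay between the lowest and the highest of the 4 types on the same scale. In the 8325 barcodes of replicate 2 outside the limits, the level was 178 CPM for Gabra2, 63.5 for Gabra3, 61.5 for Gabra4, 56.5 for Gabra5, 319 for Gabrb1, 223 for Gabrb2 and 288 for Gabrg3. These are above the 0.509 CPM that a count of 0 allows there, and no control sample gives a background for them.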

How the results depend on the processing

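Of 336 log2 fold changes of members under the alternatives, 324 stayed on their side of the threshold, 12 uncalled values among them with a changed sign, 11 fell below it and 1 passed it. In cortical nuclei 2 members were called with nuclei thinned to 5000 UMIs and 2 with scaling by total UMIs alone, against 5 in the main result. In hypothalamic nuclei 1 was called after thinning, Gabrg3, against 4; Gabra2 was then at 0.90, Gabrb2 at -0.97 and Gabra5 at -1.06 (adjusted p = 0.0948, edgeR). Thinning leaves fewer UMIs and gives each nucleus equal weight, and the cause was not tested. Leaving out 1 library gave 4 to 5 calls in cortical, 3 to 4 in red nucleus, and each time 4 in hypothalamic and 0 in hindbrain nuclei. The fit without the replicate block gave 5 calls in cortical, 3 in red nucleus, 4 in hypothalamic and 0 in hindbrain nuclei, the same counts as with it, while the calls over the pairs of types numbered 16 without the block and 15 with it. Shares in the mix moved by at most 1.93 percentage points, for Gabra2 in hypothalamic nuclei after thinning. Gabra4 and Gabra5 in red nucleus and hypothalamic nuclei rest on 25 to 101 UMIs, which limits their precision.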
